A study of Mus musculus with 9 samples.

Results

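The contractile genes of myofibroblasts and smooth muscle were followed in 9 clones of MPC, the primary cells grown from mouse tumors. The 10 genes were chosen by symbol, and all 10 were present among the 18049 genes listed. They were Acta2, Tagln, Myl9, Cnn1, Tpm1, Tpm2, Actg2, Myh11, Des and Smtn. The clones came from pancreatic tumors of WTg mice, which carry EL1-Luc/EL1-Tag and CAG-Mettl3. In these mice the elastase I promoter, active in pancreatic acinar cells, drives luciferase and the SV40 large T antigen, and the CAG promoter drives Mettl3 in most cell types. The clones were isolated with cloning cylinders as colonies of attached cells, were labelled fibroblasts and received no treatment according to the treatment label, although a protocol field names the PLK1 inhibitor NMS-P937. All clones share the genotype, so no clone without CAG-Mettl3 was compared, and no source states from how many mice the clones came. The p-values below therefore measure only the spread between these clones.

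A myofibroblast is a fibroblast that has assembled stress fibers with smooth muscle actin and can pull on the matrix around it. In the pancreas, such cells arise during injury and in the stroma of tumors, and smooth muscle actin is the usual stain for them. Many contractile genes are transcribed through serum response factor (SRF), which binds a short promoter element called the CArG box together with its cofactors of the myocardin family.

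Values are given as normalized counts, which are read counts times a single factor for each library. The column names fall under 3 prefixes, called A (1 library, A1), B (4 libraries, B1 to B4) and C (4 libraries, C1 to C4), whose meaning is not stated. Between 12198040 and 20453928 reads per library were recovered, with the lowest number in A1. A1 also held 2184 normalized counts of Mettl3, against 468 to 621 in the other clones. Xist was at 29664 to 32912 normalized counts in the 4 B libraries and at most 8.39 in the others, while Ddx3y was at 0 in the B libraries and at 2376 or more in the others, so that prefix and sex cannot be told apart. All 14 macrophage markers were above 3 reads in every library, and their summed level was 705000 to 808448 in B, 556224 to 876175 in C and 672496 in A1. The labelled fibroblasts therefore held RNA of macrophage genes in every clone. Of the 5 epithelial markers listed, Cdh1 and Krt19 were above 3 reads in every clone and Epcam was at 0 in every clone, and the summed level of the 5 was 20.3 to 188 normalized counts. In such bulk samples, fewer cells of a type and less RNA per cell cannot be told apart.

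The promoters of Acta2 and Myl9 are shown because they were the members in which a CArG box was found. A CArG box was taken as 10 bases, CC and GG around 6 middle bases of which at most 1 was C or G. The element reads the same way on both strands. RefSeq promoters (GRCm38.p6, 250 bases before to 50 after the start) were listed for 7 of the 10 genes, namely Acta2, Myl9, Cnn1, Tpm1, Tpm2, Des and Smtn. A box was present in 2 of these 7 and in 9.98% of all 32851 promoters. Capitals mark the boxes in the 250 bases before each start.
Acta2, chr19:34255374-34255623, minus strand: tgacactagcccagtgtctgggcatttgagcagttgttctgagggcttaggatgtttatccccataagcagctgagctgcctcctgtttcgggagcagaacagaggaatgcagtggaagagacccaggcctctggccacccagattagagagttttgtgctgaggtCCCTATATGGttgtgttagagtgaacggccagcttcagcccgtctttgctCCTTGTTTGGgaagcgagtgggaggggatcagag
Myl9, chr2:156775214-156775463, plus strand: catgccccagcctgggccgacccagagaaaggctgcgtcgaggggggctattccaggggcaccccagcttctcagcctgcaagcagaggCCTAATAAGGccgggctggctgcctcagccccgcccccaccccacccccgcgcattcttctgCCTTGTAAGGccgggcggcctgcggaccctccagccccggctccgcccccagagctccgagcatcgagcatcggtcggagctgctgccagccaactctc
Both promoters held 2 boxes, as did 0.822% of all promoters. In Myl9, 1 box had only A and T in the middle, a form found in 1.63% of promoters. Both stretches reach into the annotated span of their own gene, whose RefSeq record begins farther upstream. A match describes the letters and shows no binding.

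Acta2 encodes smooth muscle alpha-actin, the actin of stress fibers in myofibroblasts. It was at 89292 normalized counts in A1. In the B libraries it was at 53851, 50682, 36503 and 52517, and in the C libraries at 86946, 74339, 85234 and 70289. Every C library and A1 were above every B library.

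Tagln encodes transgelin, an actin-binding protein of stress fibers. Tagln was at 49190 in A1, at 33192, 26505, 28333 and 38505 in B, and at 50224, 34472, 41424 and 28465 in C. Here the prefixes overlapped, since B4 was above C2 and C4.

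Myl9 encodes a regulatory light chain of smooth muscle myosin. Myl9 was at 14325 in A1, at 8552, 7512, 5247 and 8959 in B, and at 11766, 9202, 14132 and 9495 in C. The lowest C library was only just above the highest B library. Cnn1 encodes calponin 1, an actin-binding protein of differentiated smooth muscle. Cnn1 was at 12868 in A1, at 3829, 3925, 3478 and 3441 in B, and at 11839, 5421, 7000 and 7154 in C. The B libraries lay close together, and A1 and C1 stood above all other clones.

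Tpm1 and Tpm2 encode tropomyosins, coiled-coil proteins that lie along actin filaments. Tpm1 was at 38816 in A1, at 17925, 15651, 13222 and 17627 in B, and at 27307, 23099, 27746 and 18653 in C. Tpm2 was at 14773 in A1, at 7802, 7535, 6076 and 8435 in B, and at 15236, 13860, 17668 and 11412 in C. For both genes every C library was above every B library.

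Actg2 encodes smooth muscle gamma-actin, which is best known from the gut wall. Actg2 was at 7618 in A1, at 8299, 5531, 4351 and 5065 in B, and at 21180, 13563, 14205 and 7830 in C. C4 was below B1, and A1 was within the range of B, unlike for Acta2.

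Myh11 encodes the smooth muscle myosin heavy chain, a marker of mature smooth muscle. Myh11 was at 3771 in A1, at 9694, 3302, 2684 and 8198 in B, and at 11850, 2184, 12297 and 5302 in C. High and low clones were found under both prefixes. Smtn encodes smoothelin, a protein of contractile smooth muscle. Smtn was at 1972 in A1, at 2143, 1485, 1295 and 1838 in B, and at 1861, 2671, 2346 and 1960 in C, with the prefixes overlapping at B1.

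Des encodes desmin, the intermediate filament of muscle that pancreatic stellate cells also carry. It was at 195 in A1, at 4716, 1830, 13119 and 7469 in B, and at 12863, 1845, 308 and 142 in C. The highest clone was 92.5 times the lowest, which still held 96 reads. Across the 10 genes the next widest range was the 5.63-fold range of Myh11, and the narrowest was the 1.89-fold range of Tagln.

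**Figure D1:**
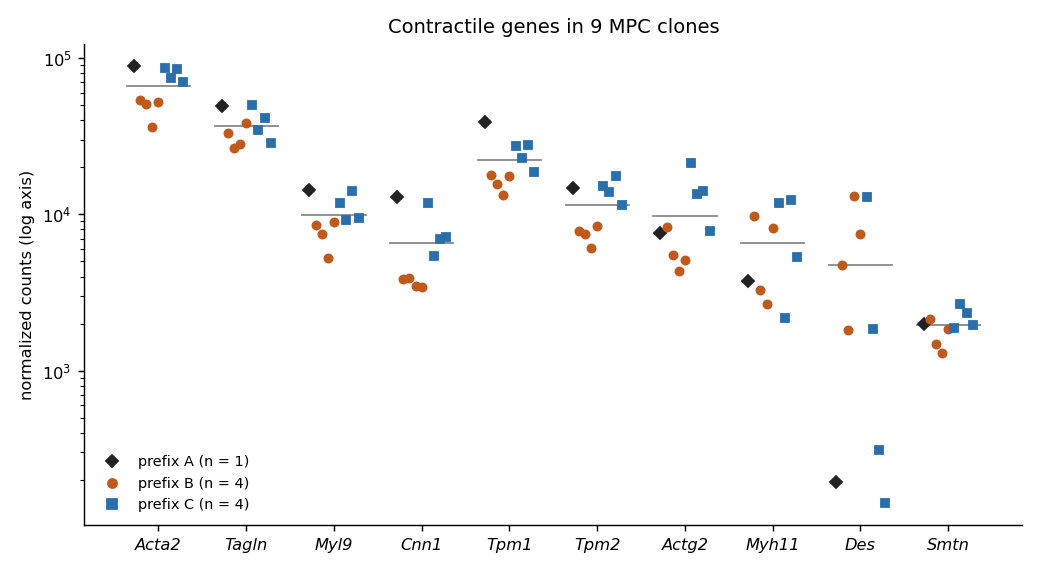
Normalized counts (log axis) of the 10 contractile genes in 9 clones, with 1 point per library, the column prefix given by shape and color, and a grey line at the mean. The C libraries lie above the B libraries for Acta2, Myl9, Cnn1, Tpm1 and Tpm2, and Des runs from 142 to 13119.

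The median SD of log2(normalized counts + 1) over the 9 clones was 0.52 for the 10 genes and 0.25 for the 14705 genes tested, whose mean reached 10 normalized counts. All 10 genes passed that filter, and the lowest number of reads for any of them was 89, for Des in A1. The highest clone was A1 for 4 genes (Acta2, Myl9, Cnn1 and Tpm1), a C library for 5 and a B library for 1. A1 was the highest clone for 19.96% of the genes tested. B3 was the lowest clone for 6 of the 10, and for 13.0% of the genes tested.

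The clones under prefix C were next compared with those under prefix B, as a comparison of possible batches. By Xist and Ddx3y the B clones were female and the C clones male, so it is also a comparison of sexes. The B and C clones would then come from different mice. The 4 clones of each prefix may share a mouse, so n = 4 counts clones and not mice. The parts of batch, sex and mouse were not tested. In 5 of the 10 genes, every C library was above every B library, against 4.55% of the genes tested. These were Acta2, Myl9, Cnn1, Tpm1 and Tpm2. No gene of the 10 had every B library above every C library, against 5.74% of the genes tested. The mean of Acta2 was 79202 ± 8154 in C and 48388 ± 8029 in B (SD, n = 4 each), and that of Tpm2 was 14544 ± 2615 in C and 7462 ± 998 in B.

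None of the 10 genes passed limma at an adjusted p under 0.05, and voom on recovered reads also called 0. At an unadjusted p under 0.05 there were 6 with limma and 6 with voom, beside 2963 and 2906 of all 14705 genes tested. Of all genes tested, limma called 17 as higher in C, which is 0.116%, and 12 as lower in C, which is 0.0816%. The median log2 difference, C minus B, was 0.57 over the 10 genes and -0.02 over all genes tested.

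The log2 difference of Tpm2 was 0.96 (95% interval 0.61 to 1.297, adjusted p = 0.060). That of Cnn1 was 1.04 (0.56 to 1.51, adjusted p = 0.108), and that of Acta2 was 0.72 (0.36 to 1.09, adjusted p = 0.123). Thus these intervals left out 0, but the adjusted p did not reach the threshold. Actg2 differed by 1.25 (0.55 to 1.94, adjusted p = 0.143), Tpm1 by 0.58 (0.23 to 0.93, adjusted p = 0.150) and Myl9 by 0.57 (0.11 to 1.02, adjusted p = 0.190). The difference of Des was -2.41, with an interval from -5.44 to 0.61 (adjusted p = 0.329), and that of Myh11 was 0.32, with an interval from -1.13 to 1.76 (adjusted p = 0.795). For these 2 genes the clones of each prefix were too far apart to place the difference. Smtn was at 0.40 (adjusted p = 0.249) and Tagln at 0.27 (adjusted p = 0.439). With 1 library left out, the difference of Tagln ranged from 0.14 without C1 to 0.41 without C4, that of Myh11 from 0.0016 without B3 to 0.83 without C2, and that of Des from -3.64 without C1 to -1.47 without C4.

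Without C3, 1 of the 10 genes was called, Tpm2, at 0.86 (adjusted p = 0.0373), and 259 genes in all. The summed macrophage level was 764679 ± 45869 in B and 643045 ± 155631 in C (SD, n = 4 each), with a median log2 difference of -0.36 over the 14 markers. None of the 14 passed limma at an adjusted p under 0.05. At an unadjusted p under 0.05 there were 8, all of them lower in C, beside 2963 of all 14705 genes tested. For 2 of the 14, every B library was above every C library, against 5.74% of the genes tested. The part of the macrophage level in the differences of the contractile genes was not tested.

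**Figure D2:**
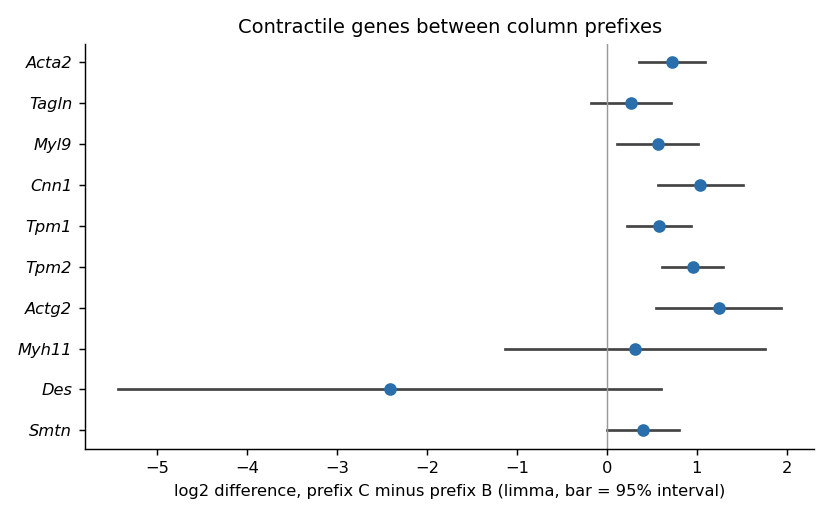
Log2 difference between the prefixes (C minus B, 4 libraries each) from limma for each of the 10 genes, with the 95% interval as a bar. The points of 9 genes lie above 0, and Des lies at -2.41 with the widest interval.

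In the other contractile genes listed beside them, 8 of 20 had every C library above every B library, against 4.55% of the genes tested. Of the 19 tested, 0 passed limma at an adjusted p under 0.05 in either direction. Their median log2 difference was 0.56. Flna, the actin crosslinker filamin A, had the highest mean of that list, at 77932 normalized counts in A1, 34141 to 50900 in B and 53669 to 74225 in C. Pdlim3 had the lowest, with at most 27.2 in any clone. Among the 13 nonmuscle counterparts, 4 had every C library above every B library, against the same 4.55%, and their median log2 difference was 0.30. The 15 regulators of SRF had a median of 0.17, and the 13 genes of TGF-beta signaling had a median of -0.11. No gene of these lists passed limma at an adjusted p under 0.05. At an unadjusted p under 0.05 there were 12 of the 19 other contractile genes, 6 of the 13 nonmuscle counterparts, 6 of the 15 regulators and 3 of the 13 TGF-beta genes, beside 2963 of all 14705 genes tested.

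Next, the share of each family's reads was taken, which does not depend on scaling. No correction for transcript length was made, so a share compares clones and does not rank genes. Acta2 took 33.6% of actin reads in A1. It took 26.3%, 22.0%, 18.9% and 24.1% in B, and 27.8%, 26.7%, 30.8% and 28.2% in C. The mean was 28.4% ± 1.72 in C and 22.8% ± 3.13 in B (SD, n = 4 each), without overlap. The Wilson 95% interval of single libraries was narrow, from 18.7% to 19.1% in B3, and covers counting error only.

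Actb, the cytoplasmic beta-actin, took 45.5% to 53.1% of actin reads in B, 40.4% to 43.1% in C and 32.9% in A1. Shares within a family sum to a whole, and the level of Actb itself was 102445 ± 7008 normalized counts in B and 116849 ± 7657 in C (SD, n = 4 each), a log2 difference of 0.19 (adjusted p = 0.447). Actg1, the cytoplasmic gamma-actin, took 21.2% to 30.3% over all clones. Actg2 took 2.26% to 6.78%, and the skeletal actin Acta1 at most 0.639%.

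Tpm2 took 12.8% to 14.4% of tropomyosin reads in B and 17.0% to 20.9% in C. Tpm3, a tropomyosin of nonmuscle cells, took 24.5% to 33.3% in B and 18.1% to 20.3% in C. The shares of both genes did not overlap between the prefixes. The level of Tpm3, however, was 14640 ± 744 normalized counts in B and 14514 ± 759 in C (SD, n = 4 each), a log2 difference of -0.01 (95% interval -0.18 to 0.15, adjusted p = 0.933). Tpm1 overlapped, at 27.5% to 32.4% in B and 27.9% to 34.5% in C, and reached 40.5% in A1. Tpm4, also listed as a nonmuscle counterpart, took 26.0% to 34.0% in B and 27.4% to 34.8% in C. Its level differed by 0.56 log2 units in limma (95% interval 0.23 to 0.88, adjusted p = 0.149). In level, 3 of the 4 tropomyosin genes had every C library above every B library, against 4.55% of the genes tested.

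Cnn1 took 22.9% to 27.6% of calponin reads in B, 22.3% to 41.8% in C and 35.9% in A1, so the prefixes overlapped. The remaining reads were on the broadly expressed Cnn2 and Cnn3. Their levels differed by 0.55 and 0.49 log2 units in limma (adjusted p = 0.157 and 0.145). In level, all 3 calponin genes had every C library above every B library, against 4.55% of the genes tested. Tagln took 71.8% to 82.7% of transgelin reads, the remainder being almost all Tagln2. Myh11 took 3.20% of myosin heavy chain reads in C2 and 20.05% in C3, beside the nonmuscle myosin Myh9 at 76.1% to 92.3%. The Des share of intermediate filament reads was 0.325% in A1. It was 10.97%, 3.42%, 31.5% and 13.2% in B, and 18.7%, 2.53%, 0.503% and 0.216% in C. Vim, the vimentin gene of mesenchymal cells, took 64.0% to 96.7%.

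**Figure D3:**
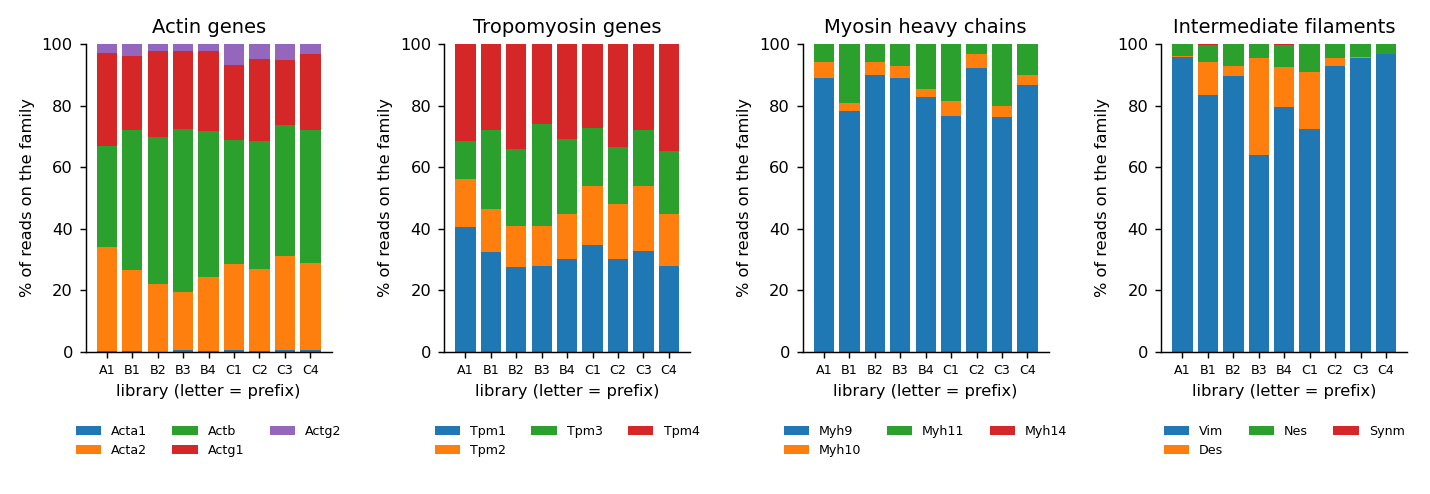
Share of reads (%) on each gene of the actin, tropomyosin, myosin heavy chain and intermediate filament families, stacked for each of 9 libraries and not corrected for transcript length. The Acta2 share runs from 18.9% to 33.6%, and the Des share from 0.216% to 31.5%.

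It was then asked which of the 10 genes varied together. The 45 pairs had a median Pearson's r of 0.65 over the 9 clones, and 37 pairs were positive. With all genes tested, the median r of each of the 10 lay between -0.07, for Tpm2, and 0.03, for Des. The 15 pairs among Acta2, Tagln, Myl9, Cnn1, Tpm1 and Tpm2 ranged from 0.72 to 0.97. For Des, 8 of its 9 pairs were negative, with a median of -0.47. Myh11 had a median of 0.31. All pairs share the same 9 libraries and are given as a description.

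**Figure D4:**
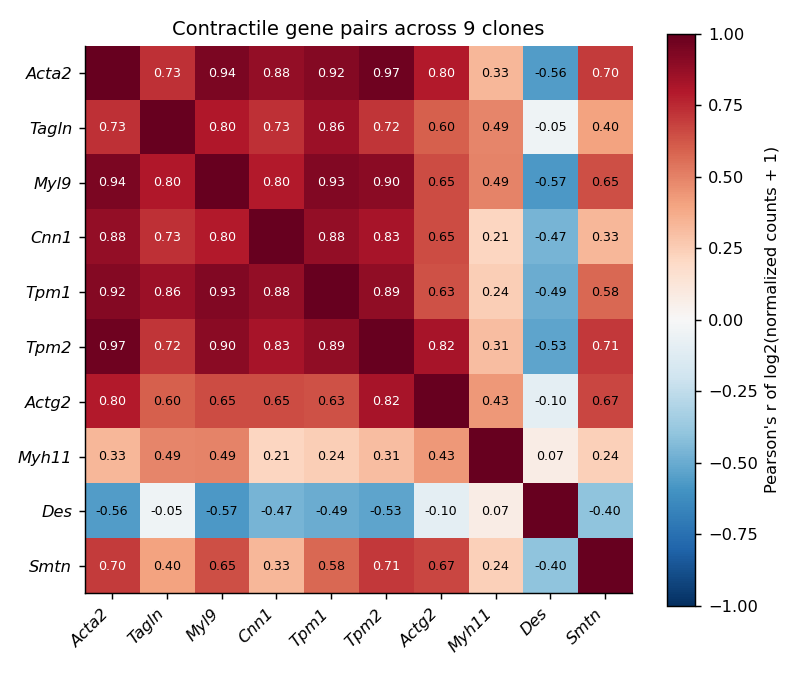
Pearson's r of log2(normalized counts + 1) over 9 clones for each pair of the 10 contractile genes, in color and as a value. Acta2 and Tpm2 have the highest r, 0.97, and the row of Des is mostly negative.

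The level of Acta2 was tested against 15 genes, 9 members and 6 regulators, with an exact two-sided permutation test and Benjamini-Hochberg adjustment over the 15. By Pearson's r, 7 of the 15 passed an adjusted p under 0.05, and by Spearman's rho 6. Since the B and C libraries did not overlap in Acta2, a pooled r holds the difference between the prefixes as well. After centring within prefixes B and C, without A1, 0 of the 15 passed in the exact test.

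The r of Acta2 with Tpm2 was 0.97 (exact adjusted p = 0.000599), rho was 0.92 (exact adjusted p = 0.00656), and the centred r was 0.85 (exact adjusted p = 0.0608). With Myl9, r was 0.94 (exact adjusted p = 0.000599), rho was 0.95 (exact adjusted p = 0.00265), and the centred r was 0.92 (exact adjusted p = 0.0651). With Tpm1, r was 0.92 (exact adjusted p = 0.00500), rho was 0.98 (exact adjusted p = 0.000744), and the centred r was 0.88 (exact adjusted p = 0.0521). For these 3 genes r stayed above 0.8 after centring. With Cnn1, r was 0.88 (exact adjusted p = 0.00964) and rho 0.87 (exact adjusted p = 0.0135), but the centred r was 0.39. With Actg2, r was 0.80 (exact adjusted p = 0.0269), rho 0.72 (exact adjusted p = 0.0691) and the centred r 0.69.

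Tagln and Smtn gave r of 0.73 and 0.70 (exact adjusted p = 0.0516 and 0.0548), and rho of 0.85 and 0.63 (exact adjusted p = 0.0152 and 0.114). Myh11 gave 0.33 and Des -0.56 (exact adjusted p = 0.399 and 0.146). The centred r was 0.71 for Myh11 and 0.042 for Des (exact adjusted p = 0.094 and 0.910). After leaving out the 2 libraries farthest from the median of Acta2, r was 0.96 with Tpm2, 0.91 with Cnn1, 0.87 with Tpm1 and 0.84 with Myl9, and the first 3 passed. With Actg2, r was then 0.66 and did not pass (exact adjusted p = 0.256), and neither did that with Myl9 (exact adjusted p = 0.0826). The r with Tagln was then 0.58 and that with Smtn 0.15 (exact adjusted p = 0.299 and 0.790).

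Srf itself varied little, from 1366 to 1688 normalized counts. Its r with Acta2 was 0.76 (exact adjusted p = 0.0485), its rho 0.73 (exact adjusted p = 0.0670), its centred r 0.76 (exact adjusted p = 0.0521), and its r without the 2 farthest libraries 0.61. Ccn2, a matrix-associated factor induced by TGF-beta, had an r of 0.79 (exact adjusted p = 0.0269) and a rho of 0.63 (exact adjusted p = 0.114). Its r was 0.34 without the 2 farthest libraries and its centred r was 0.66, and neither passed (exact adjusted p = 0.582 and 0.345). Tgfb1, the ligand, had a negative r of -0.69 (exact adjusted p = 0.0516) and a rho of -0.87 (exact adjusted p = 0.0135), but a centred r of -0.21. Mrtfa and Mrtfb, cofactors of SRF, had r of 0.63 and -0.23 (exact adjusted p = 0.0978 and 0.547), and neither passed. Myocd, the muscle cofactor of SRF, was at 0 to 108 normalized counts.

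Over all 14705 genes tested, the r with Acta2 was highest for Csrp1, at 0.97, followed by Tpm2, Map1b (0.96), Foxs1 (0.96) and 9130008F23Rik (0.95). It was lowest for Asxl2, at -0.96, and Ssh2, at -0.95. Csrp1 encodes a LIM protein of smooth muscle and was at 5707 to 14216 normalized counts. These values describe the same 9 clones and carry no test.

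The summed macrophage level moved with several of these genes. Its r was -0.65 with Acta2, -0.74 with Tpm2 and -0.76 with Actg2, and -0.03 with Des. After centring within prefixes, it was -0.47, -0.76, -0.65 and -0.53. The part of the macrophage level in the relations of Acta2 was not tested.

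Des was set beside 5 mesothelial markers, after its values had been seen. Mesothelial cells line the abdominal cavity and the surface of the pancreas. Upk3b, an uroplakin of mesothelium, was at 2.19 normalized counts in A1, at 215, 51.3, 502 and 390 in B, and at 180, 9.37, 8.39 and 0 in C. Wt1, a transcription factor of mesothelium, was at 28.4 in A1, at 388, 71.2, 625 and 271 in B, and at 472, 18.7, 0 and 0 in C. Both were highest in B3, as was Des, and at or near their lowest in C3 and C4.

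Upk3b was among the 5 genes with the highest r with Des of all 14705 tested. The p-values for these markers, set beside Des after its values had been seen, are therefore no independent support. The r of Des with Upk3b was 0.95 (exact adjusted p = 0.000565 over the 5 markers), rho was 0.93 (exact adjusted p = 0.00375) and the centred r was 0.94 (exact adjusted p = 0.00868). With Wt1, r was 0.89 (exact adjusted p = 0.00354), rho was 0.89 (exact adjusted p = 0.00634) and the centred r was 0.97 (exact adjusted p = 0.0174). Without the 2 libraries farthest from the median of Des, r was 0.88 with Upk3b and 0.96 with Wt1. Lrrn4 and Msln had r of 0.87 and 0.84 (exact adjusted p = 0.00937 and 0.00976), and centred r of 0.78 and 0.74 that did not pass (exact adjusted p = 0.0651 for both). Krt7, a keratin, had a negative r of -0.54 (exact adjusted p = 0.137). The summed level of the 5 markers was 144 to 1200 normalized counts in B, 17.7 to 731 in C and 129 in A1, and the part of mesothelial cells in the level of Des was not tested.

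**Figure D5:**
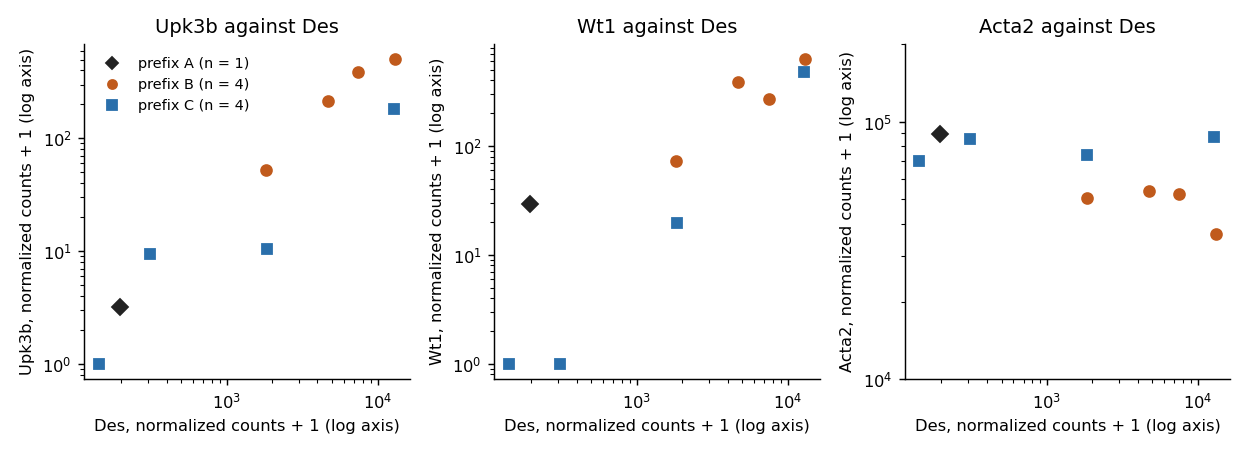
Upk3b, Wt1 and Acta2 against Des in 9 clones, all as normalized counts + 1 on log axes, with the column prefix by shape and color. Upk3b and Wt1 are higher in clones with more Des, with r of 0.95 and 0.89, whereas Acta2 has an r of -0.56.

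Pericytes and muscle cells also use several of the 10 genes. Of 7 pericyte genes, 4 were above 3 reads in every clone, and the summed level was 4011 to 20309 normalized counts. Pdgfrb was at 2162 to 11517, Mcam at 1045 to 5625, Cspg4 at 182 to 4747 and Notch3 at 156 to 1620. Rgs5 reached 424 in C3 and was at most 35.6 in the other clones, and Kcnj8 and Abcc9 were at most 2.55 and 5.09. Of 5 genes listed for quiescent stellate cells, Gfap, Lrat and Reln were absent from the genes listed. Ngfr was at most 3.88, whereas Des, which is also 1 of the 10, was at 142 to 13119. Of 8 genes listed for smooth muscle, which include Cnn1, Myh11 and Actg2, 6 were above 3 reads in every clone. Among the others of that list, Lmod1 was at 1622 to 4766 and Casq2 at most 130. The 5 striated muscle genes summed to 211 to 2124 normalized counts, with Acta1 at 71.2 to 1999 and Ttn, the titin gene, at most 5.70.

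Finally, the 10 genes were set against log2 Mettl3 over the 9 clones. None was called with limma at an adjusted p under 0.05, 0 had an unadjusted p under 0.05, beside 2203 of all 14704 genes tested, and voom also called 0. Of all genes tested, 53 were called with a positive slope, which is 0.360%, and 333 with a negative slope, which is 2.26%. The slope of Acta2 was 0.14 log2 units per log2 unit of Mettl3 (95% interval -0.35 to 0.64, adjusted p = 0.789). The slope of Tpm1 was 0.37 (-0.08 to 0.82, adjusted p = 0.430), and that of Des was -1.48 (-3.96 to 0.996, adjusted p = 0.567). The slopes depended on A1. Without A1, 0 genes in all were called at an adjusted p under 0.05 and 1634 had an unadjusted p under 0.05, and the slopes of 9 of the 10 contractile genes were negative, against 4 of 10 with A1. Of these 10 genes, 8 then had an unadjusted p under 0.05. That of Acta2 was then -2.50 (adjusted p = 0.320). Without A1, Mettl3 was at 515 to 621 normalized counts in B and at 468 to 502 in C, so Mettl3 and the prefix cannot be told apart there.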

How the data were processed

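Bulk RNA-sequencing of 9 MPC clones was analysed. The authors deposited log2 values, which hold read counts multiplied by 1 factor per library plus an offset of 4. Per the labels' processing notes, FastQC 0.11.9, STAR 2.7.10, RSEM 1.3.3 and the GRCm38 build were used. The scaling software is not given in the sources used here. The log2 was undone and 4 subtracted, and whole reads were recovered within 0.1 for 100% of values under 1000 reads. The table also holds 6 columns that were not used here. Column names do not identify single samples, so libraries are named by prefix and number. Limma 3.58.1 in R 4.3.3 (trend) was applied to log2(normalized counts + 1) where the mean of a gene reached 10, with Benjamini-Hochberg adjusted p, and was tested on simulated data. Correlations were tested over all orders of the clones, or within prefixes after centring, with scipy 1.17.1. Members and lists were chosen with earlier results of these data known. The genes named are the 10 members, the 15 genes tested against Acta2, family paralogs, the highest and lowest genes of other lists, and the 5 most alike and 2 most opposite to Acta2. Other genes were named after their values were seen, and several genes under this rule are not named, and 1 of the 15 relations is not reported here. Alternatives were other scalings, pseudocounts, filters, models and left-out libraries.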

Additional observations from a re-analysis of the deposited data

Results flagged for a closer look

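Over 30 measurements of the 9 clones, 2 had a clone far from the others. A rate of 1 in 20 would give 1.5 of 30 if the measurements were independent. They were not, since levels and family shares of the same genes were both included. The high Mettl3 of A1 was also known beforehand, so the 2 cannot be weighed against the 1.5. Mettl3 was at 2184 normalized counts in A1 and at 621 in the next clone, a gap of 0.911 of the whole range. Msln, a mesothelial marker, was at 139 in B4 and at 40.1 in the next clone, a gap of 0.711 of the range. None of the 10 contractile genes had such a clone.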

How the results depend on the processing

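No contractile gene was called between the prefixes under any alternative that kept all 8 libraries. Leaving out 1 library gave 9 to 259 genes and 0 to 1 contractile genes, with both highest values without C3. With Mettl3, the 386 genes became 238 at a minimum mean of 50 and 61 with voom, and 0 to 494 when 1 library was left out. Over those left-out libraries the slope on log2 Mettl3 went from -2.50 to 0.20 for Acta2, -1.59 to 0.24 for Tagln, -2.34 to 0.28 for Myl9, -3.10 to 0.62 for Cnn1, -2.20 to 0.43 for Tpm1, -3.20 to 0.19 for Tpm2 and -1.84 to 4.37 for Des, each turning sign without A1. The median r over pairs was 0.34 without the 2 libraries farthest in Acta2, and 0.51 to 0.70 with 1 library left out. Of the 15 relations of Acta2, 7 passed over all clones, 0 after centring, 3 without the 2 farthest libraries, and 4 to 8 with 1 library left out, with 4 without B2, B3 or C3. The r with Myh11 was -0.13 without the 2 farthest, that with Des 0.042 after centring, and that with Mrtfb ranged from -0.40 to 0.18 with 1 library left out. The cause was not tested. In all, 776 of 840 alternative values kept their direction and side of the threshold, or moved by less than a set limit. The limit for levels and shares was the SD over clones, which leaving out 1 of 9 libraries cannot reach. The limit for the median r was its own range with 1 library left out. Such values were bound to count as kept, so the total does not measure how stable the results are. The alternatives for Des and mesothelial markers were chosen after seeing the data. The correction of shares for coding length was not run. No paired analysis was possible because the columns carry no replicate numbers of the labels and all clones form 1 group.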
